A study of Mus musculus with 9 samples.

Results

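Gene expression in long-term haematopoietic stem cells of Jak2VF mice, which carry 1 mutant Jak2 allele and intact Ezh2, was set against that of both other genotypes of the study. The Jak2VF group holds 3 of the 9 arrays, and the 6 others are 3 WT (control) arrays and 3 arrays of Jak2VF mice that also lack Ezh2 (Jak2VF_Ezh2KO). In the labels' terms the genotypes were WT (control), MxCre Jak2VF/+ and MxCre Jak2VF/+ EZH2-/-, all C57BL/6. All mice, controls included, were given pI-pC at the age of 4 weeks (300 µg, 5 times) and were used 12 weeks after it. The sorted population was Lin-Sca-1+c-kit+CD34-CD135-, and each array measured 1 sample of it. MxCre is a Cre recombinase under the interferon-responsive Mx1 promoter, which pI-pC switches on in many tissues besides blood, so recombination was not limited to stem cells. The sources used here do not say whether control mice carried MxCre. The labels call the 3 samples of a genotype biological replicates without tying them to single mice, so p-values measure the spread between these samples. A gene was counted as specific to Jak2VF with intact Ezh2 where it met 3 conditions. It passed the limma contrast of Jak2VF against the mean of both other genotypes (Benjamini-Hochberg adjusted p under 0.05 over 22180 genes), its 3 Jak2VF values lay beyond all 6 others, and Jak2VF_Ezh2KO differed from WT by at most 0.5 times the Jak2VF difference.

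JAK2 is the kinase bound to the receptors for erythropoietin and related cytokines, and it passes their signal to STAT factors. The mutant allele signals without ligand and is the common driver of the myeloproliferative neoplasms, which expand erythroid cells, megakaryocytes and granulocytes. EZH2 is the catalytic subunit of the Polycomb repressive complex PRC2, which places the repressive H3K27 methyl mark on histones.

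Values are the deposited log2 levels. Array medians lay between 5.51 and 5.67, and pairs of arrays correlated over genes with r between 0.948 and 0.983. Kit, the receptor behind the c-kit gate, read 9.43 to 10.18 over the 9 arrays. Cd34 RNA read 9.91 to 10.68 and Flt3 (CD135) 6.91 to 8.03, although the gate leaves out cells with these surface proteins. The stem cell marker Slamf1 read 6.31 to 7.06, and Ly6a (Sca-1) had no probe set with a single symbol. Ezh2 read 8.87, 9.09 and 8.78 in Jak2VF against 8.48, 8.81 and 8.69 in WT and 8.47, 8.08 and 8.42 in Jak2VF_Ezh2KO, so the RNA was measured in the knockout arrays too. Its probe set's position relative to the deleted part is not known here, so it does not check the labels. Y-linked genes were expressed in Jak2VF_Ezh2KO replicates 1 and 2, below called the Y-positive knockout arrays (means of 6.66 and 6.81) and not in the other 7 arrays (3.64 to 4.08), and Xist read 4.86 and 4.56 in that pair against 10.84 to 11.31 elsewhere. All 3 Jak2VF arrays were therefore on the Xist-expressing side, and sex is mixed within 1 of the other genotypes.

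Only 2 of the 22180 genes passed (limma, 0.00902%). I730030J21Rik, a long non-coding RNA gene known by its clone name, rose in Jak2VF, and Plag1, a zinc finger transcription factor gene best known from fetal tissues, fell. Plag1 alone met all conditions for a gene specific to Jak2VF with intact Ezh2. A further 2 genes, I830077J02Rik and Itga2b, were below an adjusted p of 0.1 (limma, 0.0522 and 0.0769). Before adjustment, p was under 0.05 for 731 genes on the higher (3.3%) and 378 on the lower side (1.7%), together 5% of the genes tested, which is the share that this threshold itself allows without any change. Without overlap between the 3 Jak2VF arrays and the 6 others, 290 genes were higher (1.31%) and 142 lower (0.64%). Together they were 1.95% of the genes, and any 1 such gene has an exact permutation p of 0.0238 (two-sided). These counts carry no adjustment over genes. Of those without overlap, 201 higher (0.906% of all genes) and 103 lower (0.464%) had a Jak2VF_Ezh2KO level near WT by the 0.5 ratio. That is 69.3% and 72.5% of them against 22.7% of all genes, a contrast that the absence of overlap itself favours.

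The genes without overlap were seldom far apart. Their median difference was 0.38 for the higher and -0.37 for the lower ones, beside a median of 0.03 over all genes. A difference of at least 0.5 was found for 89 of the higher and 42 of the lower genes, and of at least 1 for 15 and 6. The higher genes were mostly well expressed, with 227 in the brighter part of the array's genes and 63 in the dimmer, split at the median of mean signal. For the lower genes the split was 76 and 66. Taken singly, Jak2VF minus WT called 0 genes (limma, with 632 higher and 402 lower at an unadjusted p under 0.05), and Jak2VF_Ezh2KO minus Jak2VF called 10 (0.0451%). Both of those contrasts share the Jak2VF arrays with the main one. Jak2VF_Ezh2KO minus WT called 5 genes over the array (0.0225%). Its median size was 0.12 in the 432 genes without overlap and 0.15 over all genes, but those genes were chosen on the same 6 arrays, so nothing is read from it.

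**Figure D1:**
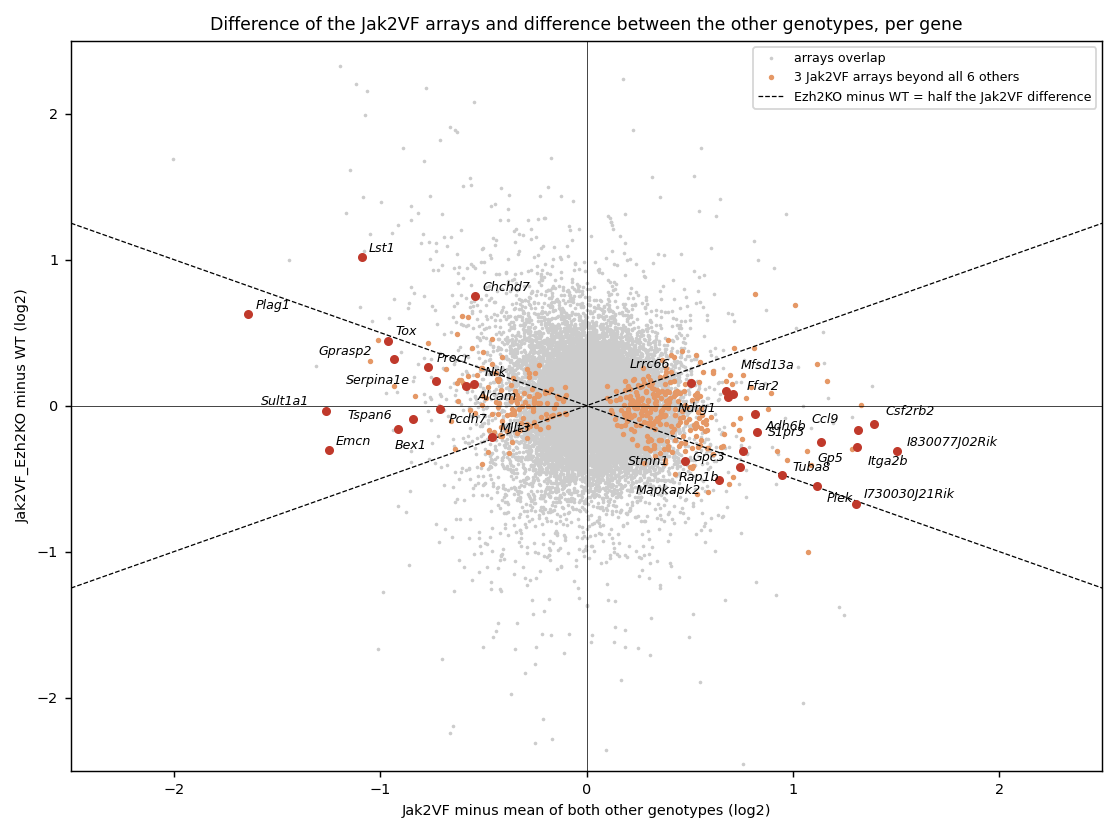
Each point is 1 of the genes on the array; the x axis is the log2 level in Jak2VF minus the mean of both other genotypes and the y axis Jak2VF_Ezh2KO minus WT in log2. Orange points are the 432 genes whose 3 Jak2VF arrays lie beyond all 6 others, red points the named ones among them, and the dashed lines mark where the y value is 0.5 of the x value; Plag1 lies inside the lines on the left and I730030J21Rik just outside them on the right (7 genes lie beyond the axes).

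Plag1 read 6.23, 6.14 and 6.15 in the Jak2VF arrays against 7.48, 7.33 and 7.69 in the WT arrays and 7.67, 8.22 and 8.50 in the Jak2VF_Ezh2KO arrays. The Jak2VF values spanned 0.09 and the highest of them lay 1.10 below the lowest of the 6 others, and the highest levels were those without Ezh2. Plag1 fell by 1.64 ± 0.17 on the log2 scale (SE; 3.12-fold lower; adjusted p = 0.0343, limma). In Jak2VF it was 1.33 below WT, and in Jak2VF_Ezh2KO it was 1.95 above Jak2VF (adjusted p = 0.308 and 0.0159, limma). Jak2VF_Ezh2KO was 0.63 above WT, with a 95% interval from 0.18 to 1.08 (adjusted p = 0.466, limma). Without both Y-positive knockout arrays the difference was -1.83 (adjusted p = 0.0572, limma), and over all fits tried the adjusted p ran from 0.00723 to 0.49. Plag1 was no longer called when any single WT or Jak2VF array or Jak2VF_Ezh2KO replicate 2 was left out, with differences from -1.68 to -1.59.

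Chchd7, a gene for a small mitochondrial protein that lies next to Plag1 in the reference gene order, also read lowest in Jak2VF. It read 7.73, 7.70 and 7.84 in Jak2VF against 7.87, 7.97 and 7.93 in WT and 8.65, 8.57 and 8.81 in Jak2VF_Ezh2KO. The 3 groups did not overlap, but Jak2VF lay just below WT and the knockout arrays stood well above both. Its difference was -0.54 ± 0.10 (adjusted p = 0.469, limma), of which -0.16 was the gap to WT, and Jak2VF_Ezh2KO was 0.75 above WT (95% interval 0.49 to 1.02). Chchd7 therefore did not meet the nearness condition. Of 22116 pairs of neighbouring measured genes, 7 had both members without overlap in the same direction, and Plag1 with Chchd7 is 1 of them.

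I730030J21Rik, named after its value was seen because it is 1 of only 2 calls, read 9.23, 9.13 and 9.63 in Jak2VF against 8.37, 8.45 and 8.25 in WT and 7.52, 7.81 and 7.73 in Jak2VF_Ezh2KO. The 3 genotypes did not overlap, and the order was knockout, WT, Jak2VF. It rose by 1.31 ± 0.14 (SE; 2.47-fold; adjusted p = 0.0343, limma). Jak2VF_Ezh2KO was 0.67 below WT (95% interval -1.02 to -0.32), and the ratio to the main difference was 0.51, just outside the 0.5 set for nearness. Plag1, inside it, had 0.38. The call was lost without any 1 of the arrays except Jak2VF_Ezh2KO replicate 3 (1.16 to 1.41). Over all fits tried its adjusted p ran from 0.00723 to 0.409, and it was 0.249 without both Y-positive knockout arrays (limma, difference 1.29). Its neighbour Galnt6, an enzyme gene for the first step of mucin-type glycosylation, also named after its values were seen, read 7.81, 8.13 and 7.85 in Jak2VF against 6.45 to 7.67 in the 6 others (difference 0.56 ± 0.25, adjusted p = 0.933, limma). The promoter of the non-coding RNA is shown because it is the 1 gene called higher. RefSeq (GRCm38.p6) places its window, 250 bases before to 50 after the start, at chr15:100732688-100732987 on the minus strand. Capitals mark the ETS core GGAAGT on either strand, found at -57 and -6 from the start.
I730030J21Rik: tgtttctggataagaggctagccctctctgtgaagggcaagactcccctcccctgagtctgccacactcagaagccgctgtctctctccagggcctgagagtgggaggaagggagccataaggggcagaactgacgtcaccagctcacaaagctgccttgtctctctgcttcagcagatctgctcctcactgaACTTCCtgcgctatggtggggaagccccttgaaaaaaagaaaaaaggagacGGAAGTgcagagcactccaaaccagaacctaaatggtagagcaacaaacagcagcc

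I830077J02Rik, a further clone-named gene chosen after its values were seen, had the largest higher difference among the genes without overlap. It read 7.56, 7.60 and 7.75 in Jak2VF against 5.97, 6.36 and 6.52 in WT and 6.25, 5.56 and 6.10 in Jak2VF_Ezh2KO. The lowest Jak2VF array lay 1.04 above the highest other, and WT overlapped with the knockout. The difference was 1.51 ± 0.18 (2.84-fold, adjusted p = 0.0522, limma), and Jak2VF_Ezh2KO minus WT was -0.31 (95% interval -0.77 to 0.14).

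**Figure D2:**
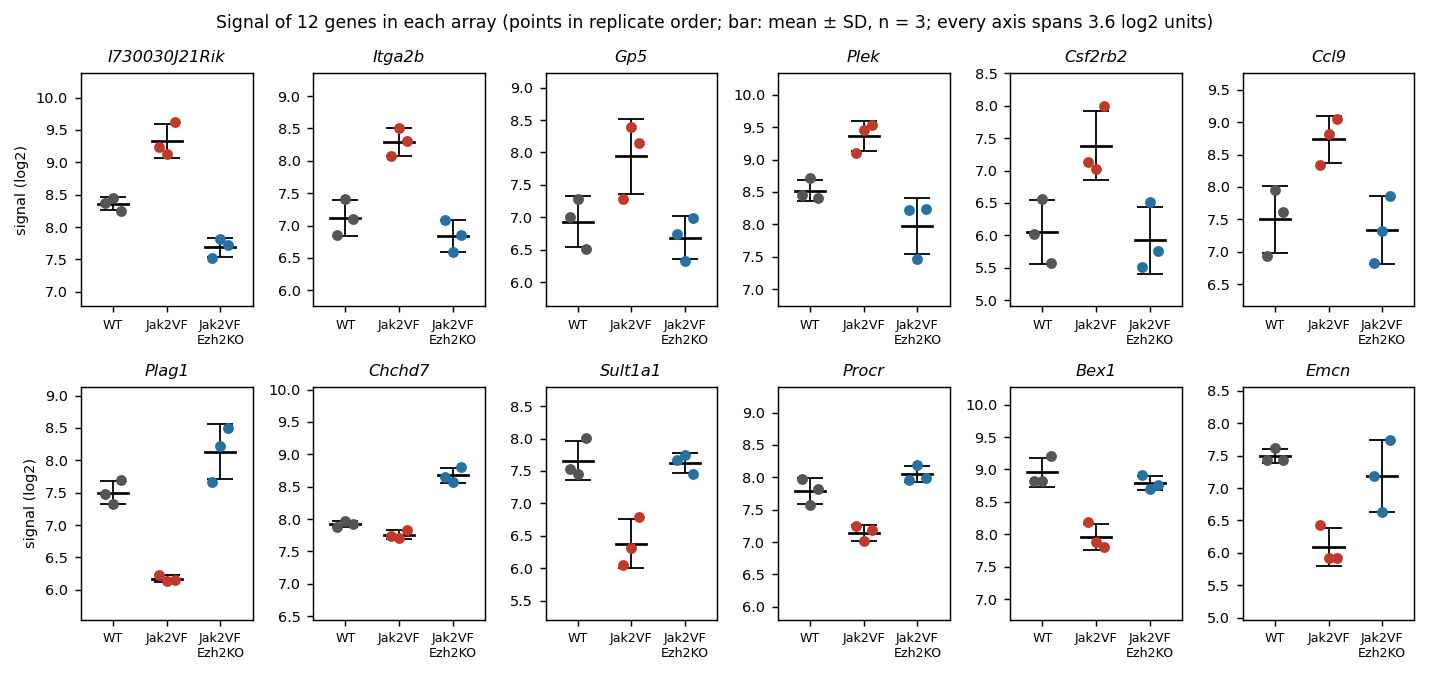
Deposited log2 level of selected genes (y axis) in every array, with WT, Jak2VF and Jak2VF_Ezh2KO side by side. Points are single arrays and bars are group means ± SD (n = 3). The genes shown were picked from those without overlap. In each panel the 3 Jak2VF points therefore lie beyond all 6 others, for example at 6.14 to 6.23 for Plag1 and 8.07 to 8.51 for Itga2b.

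Megakaryocyte and platelet genes held the most members higher in Jak2VF without overlap. Of 33 listed genes 29 were measured, and 7 had all 3 Jak2VF arrays above the 6 others (1.31% over all genes) while 0 had them below. None passed the test (limma, 9 higher and 1 lower at an unadjusted p under 0.05, against 3.3% and 1.7% over all genes). The list's median difference was 0.21, with 24 members above 0 and 5 below, against 0.03 over all genes. In bulk samples, fewer or more cells of a type and less or more RNA per cell cannot be told apart. Relative to WT, members had a median of -0.03, 0.40 and 0.31 in replicates 1, 2 and 3 of Jak2VF, -0.28 to -0.02 in Jak2VF_Ezh2KO and -0.03 to 0.12 in WT. Jak2VF replicate 1 thus lay within the range of WT, and the list's median was 0.33 without it (11 members higher without overlap) and 0.13 without Jak2VF replicate 2. Leaving out an array loosens this count for all genes. With Jak2VF replicate 1 left out, 1366 of all genes were higher without overlap, against 290 with all arrays. Leaving out both Y-positive knockout arrays gave 0.20, with 7 members higher and 1 lower without overlap (411 and 274 over all genes).

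Itga2b, which encodes the αIIb (CD41) chain of the platelet fibrinogen receptor and marks platelet-biased stem cells, had the smallest p of the list. It read 8.07, 8.51 and 8.31 in Jak2VF against 6.86, 7.41 and 7.10 in WT and 7.08, 6.59 and 6.85 in Jak2VF_Ezh2KO. The gap between the lowest Jak2VF array and the highest other was 0.66, and WT and the knockout overlapped. Its difference was 1.31 ± 0.17 (SE; 2.48-fold; adjusted p = 0.0769, limma, and 0.0179 to 0.582 over the fits tried). It passed with quantile normalization (adjusted p = 0.0443, limma). Without both Y-positive knockout arrays the difference was 1.31 (adjusted p = 0.383, limma). Set against Jak2VF alone it was 1.45 lower without Ezh2 (adjusted p = 0.0441, limma), and Jak2VF_Ezh2KO minus WT was -0.28 (95% interval -0.71 to 0.14). Itgb3, the β3 partner chain, read 6.71, 7.02 and 6.75 in Jak2VF against 5.76 to 6.47 in the 6 others, a difference of 0.74 ± 0.17.

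The remaining members without overlap were Gp5, Plek, Rap1b, Selp and Fli1. Gp5, a subunit of the von Willebrand factor receptor complex, read 7.29, 8.39 and 8.15 in Jak2VF against 7.01, 7.28 and 6.51 in WT and 6.74, 6.33 and 6.99 in Jak2VF_Ezh2KO. Jak2VF replicate 1 cleared WT replicate 2 by 0.0048 only, and the difference was 1.13 ± 0.26 (adjusted p = 0.666, limma). Plek, the protein kinase C substrate pleckstrin, read 9.10, 9.46 and 9.54 in Jak2VF against 8.45, 8.71 and 8.40 in WT and 8.21, 7.47 and 8.24 in Jak2VF_Ezh2KO. All 3 Jak2VF arrays stood clear, by a difference of 1.12 ± 0.19 (adjusted p = 0.274, limma). Rap1b, the small GTPase that activates the fibrinogen receptor, differed by 0.74 ± 0.12 with Jak2VF at 10.56 to 10.74 and the others at 9.52 to 10.22, and was 0.42 lower in Jak2VF_Ezh2KO than in WT, so not near it. A second Rap1b probe set differed by 0.51 with overlap. Selp, the P-selectin of platelet granules, and Fli1, an ETS factor of megakaryocytes, differed by 0.81 ± 0.27 and 0.50 ± 0.16. Pf4, a platelet chemokine, differed by 0.63 with overlap, and Mmrn1, a platelet granule protein also found in stem cells, by -0.44. Selp, Fli1, Itgb3, Pf4 and Mmrn1 were singled out after their values were seen.

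The promoters of Itga2b and Gp5 are shown because these platelet receptor genes had the list's largest differences with motif matches in the window. They are RefSeq windows of GRCm38.p6, from 250 bases before to 50 after the start, both on the minus strand. Itga2b lies at chr11:102469834-102470133 and Gp5 at chr16:30310732-30311031. Capitals mark matches on either strand to the STAT motif TTCNNNGAA, the GATA motif AGATAA, the ETS core GGAAGT and the interferon response motif (GAAA, any 2 bases, GAAA), and no matches overlapped.
Itga2b: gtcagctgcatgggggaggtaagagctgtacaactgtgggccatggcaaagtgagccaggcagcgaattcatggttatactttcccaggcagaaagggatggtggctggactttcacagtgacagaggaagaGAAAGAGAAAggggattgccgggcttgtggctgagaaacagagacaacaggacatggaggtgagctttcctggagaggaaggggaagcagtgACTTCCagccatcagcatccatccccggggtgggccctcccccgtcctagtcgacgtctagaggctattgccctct
Gp5: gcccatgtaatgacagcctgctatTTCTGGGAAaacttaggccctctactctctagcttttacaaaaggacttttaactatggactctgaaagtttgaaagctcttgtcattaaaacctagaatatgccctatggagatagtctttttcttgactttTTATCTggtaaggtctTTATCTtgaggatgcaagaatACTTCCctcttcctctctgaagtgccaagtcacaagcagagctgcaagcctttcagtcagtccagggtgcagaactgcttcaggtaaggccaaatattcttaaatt
In Itga2b the interferon response motif lies at -118 and the ETS core at -26. In Gp5 the STAT motif lies at -226, GATA motifs at -93 and -77, and the ETS core at -56.

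Long-term stem cell genes held the most members lower in Jak2VF without overlap. Of 46 listed genes 43 were measured, 8 lay below the 6 other arrays (0.64% over all genes) and 2 above. Plag1 was the 1 that passed (limma), and 7 of the 8, all but Mecom, were near WT without Ezh2. The median over the list was -0.07, with 14 members above 0 and 29 below. Leaving out Jak2VF replicate 1 moved this median to -0.02 and leaving out Jak2VF_Ezh2KO replicate 3 to -0.02. The count of lower members was 8 in both cases, while over all genes it rose from 142 to 558 and 175. The list's median was -0.12 without Jak2VF replicate 2, Jak2VF replicate 3 or Jak2VF_Ezh2KO replicate 2. Without Jak2VF replicate 3 the lower members numbered 14, and 682 of all genes were lower without overlap. Leaving out both Y-positive knockout arrays gave a median of -0.16, with 11 members lower and 2 higher (274 and 411 over all genes).

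Sult1a1, a sulfotransferase gene, read 6.04, 6.31 and 6.78 in Jak2VF against 7.52, 7.45 and 8.0 in WT and 7.68, 7.75 and 7.45 in Jak2VF_Ezh2KO. All Jak2VF arrays lay at least 0.67 below the others, and WT and the knockout overlapped. The difference was -1.26 ± 0.19 (2.40-fold lower, adjusted p = 0.159, limma), with Jak2VF_Ezh2KO minus WT at -0.03 (95% interval -0.51 to 0.44). Bex1, a small brain-expressed X-linked adaptor, read 8.19, 7.89 and 7.80 in Jak2VF against 8.83, 8.83 and 9.21 in WT and 8.91, 8.70 and 8.77 in Jak2VF_Ezh2KO, a difference of -0.91 ± 0.14 without overlap (adjusted p = 0.165, limma). Procr, the endothelial protein C receptor used to sort stem cells as EPCR or CD201, read 7.25, 7.01 and 7.18 in Jak2VF against 7.97, 7.57 and 7.81 in WT and 7.96, 8.19 and 7.99 in Jak2VF_Ezh2KO. Its Jak2VF levels were all below the others, by -0.77 ± 0.12 (adjusted p = 0.213, limma).

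Regulators of stem cell maintenance in the same list were Mecom, the transcription factor gene that holds Evi1, and Mllt3, a chromatin reader of the super elongation complex. Mecom read 6.91, 7.09 and 7.16 in Jak2VF against 7.90, 7.55 and 7.83 in WT and 7.37, 7.17 and 7.54 in Jak2VF_Ezh2KO. The mean of the knockout arrays lay between both others, 0.40 below WT, and the difference was -0.51 ± 0.13. A second Mecom probe set differed by -0.53, also without overlap, but there the knockout was only 0.15 below WT, so the probe sets disagree on nearness. Mllt3 differed by -0.46 ± 0.11, the receptor-sorting gene Gprasp2 by -0.93 ± 0.22 and the imprinted growth suppressor Ndn by -0.62 ± 0.21. A second Gprasp2 probe set differed by -0.46 with overlap. Members without overlap in the other direction were Vldlr, a lipoprotein receptor (0.69 ± 0.22), and Clca3a1, a secreted chloride channel regulator (1.01 ± 0.30), neither near WT without Ezh2. Ndn, Vldlr and Clca3a1 were singled out after their values were seen.

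Further surface and nuclear genes outside that list were lower in Jak2VF without overlap. Emcn, the sialomucin endomucin carried by stem cells and endothelium, read 6.43, 5.91 and 5.92 in Jak2VF against 7.43, 7.63 and 7.43 in WT and 7.19, 6.63 and 7.74 in Jak2VF_Ezh2KO. The gap was 0.20 at its narrowest, to Jak2VF_Ezh2KO replicate 2, and the difference was -1.25 ± 0.22 (adjusted p = 0.334, limma). Tox, a nuclear HMG-box factor of lymphoid development, differed by -0.96 ± 0.17, and Lst1, a leukocyte membrane adaptor, by -1.09 ± 0.18. For Lst1 the knockout was 1.02 above WT, and Jak2VF minus WT was -0.58, so the nearness condition failed. Tspan6 (a tetraspanin), Pcdh7 (a protocadherin), Alcam (the adhesion molecule CD166), Serpina1e (a protease inhibitor) and Nrk (a kinase) differed by -0.84, -0.71, -0.58, -0.73 and -0.54. None of these 8 passed (adjusted p from 0.213 to 0.687, limma).

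Of the stem cell and endothelial genes, Emcn also stood in the list of stromal and endothelial markers, 19 of whose 20 members were measured. Their median difference was 0.01, with 1 member higher (Pdgfrb, a pericyte growth factor receptor, 0.71 ± 0.26) and 1 lower without overlap. Over all genes the shares were 1.31% and 0.64%. Pdgfrb was 0.40 above WT in Jak2VF_Ezh2KO, so not near it. Members' median relative to WT was between -0.08 and 0.08 in Jak2VF, -0.10 and 0.00 in Jak2VF_Ezh2KO and -0.06 and 0.00 in WT.

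**Figure D3:**
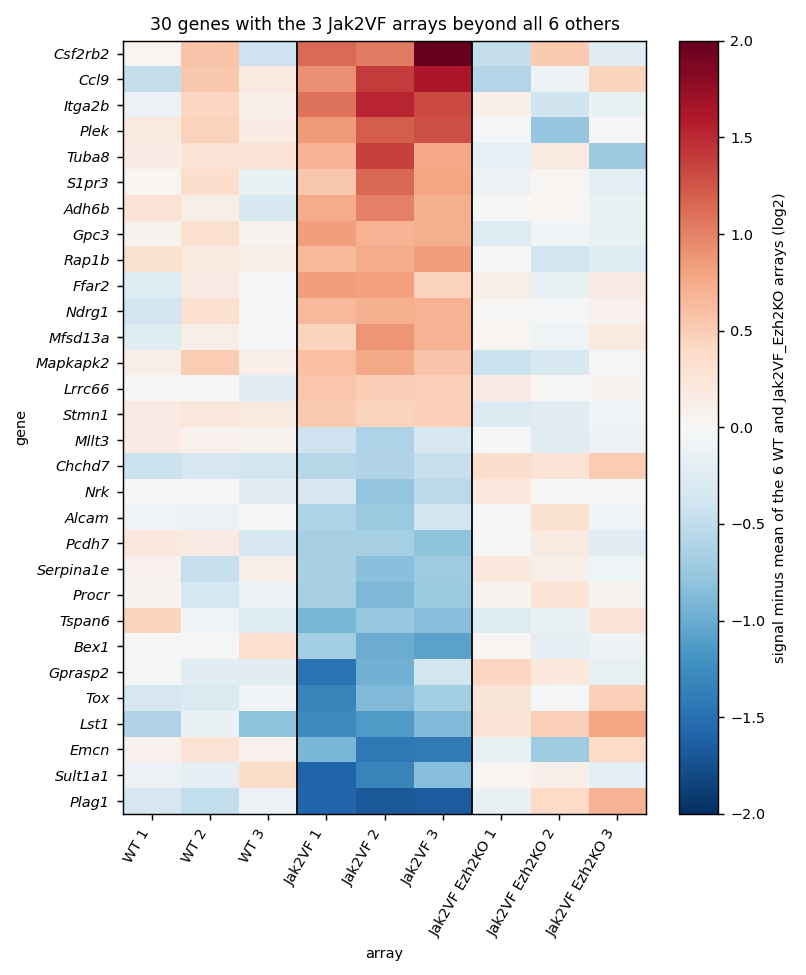
Log2 level of 30 named genes in each array minus the mean of the 6 WT and Jak2VF_Ezh2KO arrays (colour scale in log2), with genes in rows and the 9 arrays in columns by genotype. The 3 Jak2VF columns hold the same colour for each gene, red where higher and blue where lower, and WT and Jak2VF_Ezh2KO are both pale for most genes, with exceptions such as Lst1 (knockout 1.02 above WT) and Chchd7 (0.75 above).

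Receptors for haematopoietic cytokines were measured for 23 of 27 listed, of which 2 lay above the 6 other arrays and 0 below (1.31% and 0.64% over all genes). None passed (limma, 4 higher and 1 lower at an unadjusted p under 0.05, against 3.3% and 1.7% over all genes), and 18 were above 0. The median was 0.12, and 0.02 without Jak2VF replicate 3. Without Jak2VF replicate 1 it was 0.20, with 8 members higher without overlap (1366 over all genes, against 290 with all arrays). Csf2rb2, a β chain that pairs with the interleukin-3 receptor, read 7.13, 7.02 and 8.0 in Jak2VF against 6.02, 6.57 and 5.57 in WT and 5.52, 6.51 and 5.76 in Jak2VF_Ezh2KO. Jak2VF replicate 3 was the highest and both others lay about 0.5 above WT replicate 2. The difference was 1.39 ± 0.30 (2.63-fold, adjusted p = 0.553, limma), with Jak2VF_Ezh2KO minus WT at -0.13 (95% interval -0.90 to 0.65). Csf2rb, its near-identical neighbour and the common β chain, differed by 0.65 ± 0.17 without overlap. The pair shares much of its sequence, so the probe sets may not tell both genes apart.

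The promoter of Csf2rb2 is shown because this receptor, whose signal runs through JAK2, had the largest difference of its list. RefSeq (GRCm38.p6) places the window at chr15:78305672-78305971 on the minus strand. Capitals mark the STAT motif at -15 and the ETS core, 28 bases after the start.
Csf2rb2: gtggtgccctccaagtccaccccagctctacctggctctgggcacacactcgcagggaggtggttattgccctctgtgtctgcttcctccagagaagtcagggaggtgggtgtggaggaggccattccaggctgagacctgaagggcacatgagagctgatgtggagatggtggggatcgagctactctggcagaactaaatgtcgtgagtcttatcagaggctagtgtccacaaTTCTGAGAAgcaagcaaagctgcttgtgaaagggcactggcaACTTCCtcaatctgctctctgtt

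Over all genes without overlap, motif shares lay near those of the whole array. Of 16990 genes with a RefSeq promoter, 8.05% held the STAT motif, against 9.95% of 221 higher and 6.42% of 109 lower genes without overlap. The GATA motif was found in 9.98%, 9.05% and 13.8%, the ETS core in 25.1%, 30.3% and 27.5%, and the interferon response motif in 3.35%, 5.43% and 4.59%. Windows of the higher genes had a median of 18 CG dinucleotides, those of the lower genes 11 and those of all genes 13. These are descriptions of 300-base windows, and a match is not a binding site. Promoters of Plag1 and Chchd7 were not used here.

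Signalling and migration genes outside the receptor list were higher in Jak2VF without overlap too. Ccl9, a chemokine of myeloid cells, read 8.34, 8.82 and 9.04 in Jak2VF against 6.94, 7.96 and 7.61 in WT and 6.83, 7.31 and 7.86 in Jak2VF_Ezh2KO. Each Jak2VF array was above WT replicate 2, the highest of the others, and the difference was 1.32 ± 0.28 (adjusted p = 0.523, limma). S1pr3, a sphingosine 1-phosphate receptor, read 5.46, 6.07 and 5.72 in Jak2VF against 4.97, 5.29 and 4.80 in WT and 4.80, 4.96 and 4.74 in Jak2VF_Ezh2KO, a difference of 0.83 ± 0.16. It was the 1 member without overlap of 25 measured niche adhesion and migration receptors (1.31% higher over all genes), whose median was 0.03. Ffar2 (a short-chain fatty acid receptor), Mapkapk2 (a kinase downstream of p38) and Tgfbr3 (a TGF-β co-receptor) differed by 0.71, 0.64 and 0.41. Mapkapk2 was 0.51 lower in Jak2VF_Ezh2KO than in WT, so not near it.

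Ndrg1, a stress-responsive gene, read 10.07, 10.14 and 10.12 in Jak2VF against 9.05, 9.75 and 9.40 in WT and 9.46, 9.40 and 9.51 in Jak2VF_Ezh2KO. The Jak2VF arrays spanned 0.08 and lay above the rest, by 0.69 ± 0.15, and a second probe set gave 0.80, also without overlap. Adh6b (an alcohol dehydrogenase), Mfsd13a (a membrane transporter family member), Lrrc66 and Tuba8 (a tubulin) differed by 0.82, 0.67, 0.51 and 0.95. Tuba8 was 0.47 lower in Jak2VF_Ezh2KO than in WT, a ratio of 0.502 and so just outside nearness. The second Tuba8 probe set differed by 0.42 with overlap. The adjusted p of these genes, from Ccl9 on, ran from 0.346 to 0.92 (limma).

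Imprinted growth genes and the PLAG family were listed because PLAG factors are known to act on imprinted loci. The list was made with earlier results of these data known, so its counts are a description and no support for the list. Of 28 listed, 26 were measured, 6 lay below the 6 other arrays (0.64% over all genes) and 1 above, and the list's median was -0.08. Plag1, the 1 that passed, and Ndn also stand in the stem cell list, so these counts are not independent of the ones above. Chchd7, 0.16 below WT and not near it without Ezh2, is listed as the neighbour of Plag1. The others lower were Grb10, an adaptor that restrains insulin and growth factor signals (-0.63 ± 0.16), Igf2r, which clears IGF2 (-0.37 ± 0.12), and Kcnq1ot1, a long non-coding RNA that silences its imprinted neighbours (-0.36 ± 0.13). Grb10 read 6.39, 6.68 and 6.35 in Jak2VF against 6.87 to 7.55 in the 6 others. Igf2r and Kcnq1ot1 were singled out after their values were seen. Gpc3, a growth-restraining glypican, read 5.37, 5.23 and 5.26 in Jak2VF against 4.60, 4.86 and 4.60 in WT and 4.27, 4.47 and 4.39 in Jak2VF_Ezh2KO. It was higher in all Jak2VF arrays, by 0.76 ± 0.11 (adjusted p = 0.159, limma), at a level below the median of the array. Without Jak2VF replicate 1, 2 or 3 the list's median was -0.04, -0.02 or -0.17, and 6, 6 or 7 members lay below. Over all genes, 558, 432 or 682 lay below, against 142 with all arrays.

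**Figure D4:**
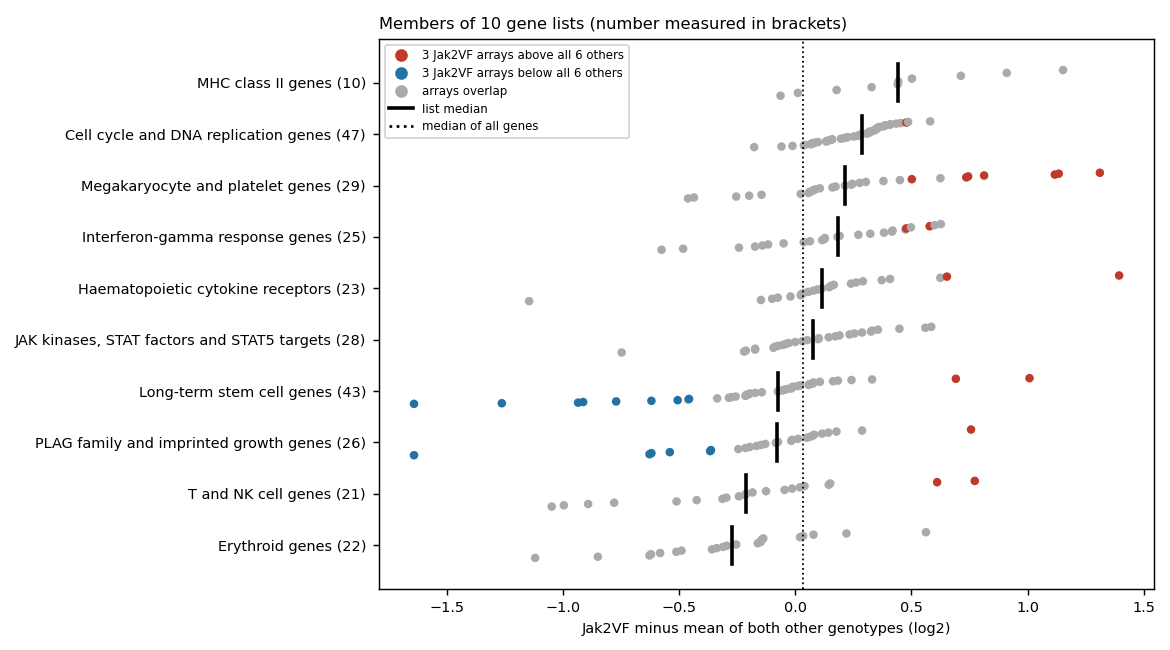
Difference of Jak2VF from the mean of both other genotypes (x axis, log2) for the measured members of 10 gene lists (y axis); each point is a gene, red and blue where the 3 Jak2VF arrays lie above or below all 6 others, the thick bar is the list's median and the dotted line the median of all genes (0.03). The 7 red platelet genes and the 8 blue stem cell genes stand out, while the medians of both lists are 0.21 and -0.07.

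Among JAK2 pathway genes, Jak2 itself read 8.23, 8.52 and 8.11 in Jak2VF against 7.91, 8.11 and 8.09 in WT and 7.93, 7.90 and 7.66 in Jak2VF_Ezh2KO, with Jak2VF replicate 3 level with WT replicate 2. The difference was 0.36 ± 0.13 (adjusted p = 0.933, limma; exact permutation p = 0.0476, two-sided). Of 28 measured JAK kinases, STAT factors and STAT5 targets, 0 passed, 0 were without overlap, and the median was 0.08. At an unadjusted p under 0.05 (limma), 5 were higher and 1 lower, against 3.3% and 1.7% over all genes. Without Jak2VF replicate 1 the median was 0.14 with 6 members higher without overlap (1366 over all genes, against 290 with all arrays). Without Jak2VF replicate 3 or Jak2VF_Ezh2KO replicate 1 it was 0.05. Pim1, a STAT5 target kinase, differed by 0.59 and was 0.59 above WT without Ezh2, so this probe set read high in both mutant genotypes. A second Pim1 probe set differed by 0.31 with overlap. There Jak2VF_Ezh2KO minus WT was -0.003, so the probe sets disagree on the knockout. Cish, a STAT5-induced inhibitor, differed by -0.75 with the knockout 0.93 above WT and Jak2VF 0.28 below it. Stat5b itself differed by 0.56 with overlap.

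Of the Polycomb genes, Ezh2 differed by 0.42 ± 0.14 (adjusted p = 0.933, limma; exact permutation p = 0.0476, two-sided), and Jak2VF replicate 3 overlapped with WT. Its paralog Ezh1 differed by -0.03. Of 13 measured PRC2 genes 0 passed. At an unadjusted p under 0.05 (limma), 1 was higher and 0 lower (3.3% and 1.7% over all genes), and the median difference was 0.02. That median has no settled sign: it was -0.02 with quantile normalization, -0.01 without WT replicate 1 or Jak2VF replicate 2, and 0.11 without Jak2VF replicate 1. Of 16 PRC1 genes, Yaf2, a RING1-binding subunit, was higher without overlap (0.41 ± 0.17), against 1.31% over all genes. In Jak2VF_Ezh2KO Yaf2 was 0.35 above WT, so not near it. The PRC1 median was 0.05, and 0.02 without WT replicate 1 or Jak2VF replicate 2. Without Jak2VF replicate 1 it was 0.13 with 3 members higher (1366 over all genes, against 290 with all arrays). Among 31 measured Hox genes the median was -0.06. Hoxa4 was lower without overlap (-0.44 ± 0.14), against 0.64% over all genes. It read 4.81, 5.37 and 5.40 in Jak2VF, and replicate 3 lay only 0.0046 below WT replicate 1. Its nearness ratio was 0.501, just outside 0.5. Without Jak2VF replicate 3 the Hox median was -0.12 with 4 members lower (682 over all genes, against 142 with all arrays).

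Antigen presentation genes read higher in Jak2VF, but several did so without Ezh2 as well. The MHC class II list, 10 of 11 measured, had the highest median of the 28 lists at 0.44, with 9 above 0 and 0 without overlap. Of its members 0 passed (limma, 4 higher and 0 lower at an unadjusted p under 0.05, against 3.3% and 1.7% over all genes). Without Jak2VF replicate 1, 6 members were without overlap, and without Jak2VF_Ezh2KO replicate 3, 3 were. Over all genes, 1366 were higher and 558 lower in the first case, and 367 and 175 in the second. With all arrays the counts were 290 and 142. H2-Eb1, a class II β chain, read 6.69, 7.10 and 7.18 in Jak2VF against 6.11, 5.78 and 6.07 in WT and 6.49, 6.49 and 6.71 in Jak2VF_Ezh2KO. Jak2VF replicate 1 overlapped with the knockout, whose mean lay between both others, 0.58 above WT. H2-Aa differed by 1.15 ± 0.34 and H2-Ab1 by 0.91 ± 0.30, the latter with the knockout 0.94 above WT. Among 25 measured interferon-gamma response genes the median was 0.18 (0.06 without both Y-positive knockout arrays and 0.11 without replicate 2 of that pair alone), and members lay 0.34 above WT in the median in Jak2VF and also in Jak2VF_Ezh2KO.

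Psmb9 and Tap2, both higher, were the members without overlap of the 25 measured in the interferon-gamma list (1.31% higher over all genes). Psmb9, an immunoproteasome subunit, read 10.89, 11.16 and 10.81 in Jak2VF against 10.04 to 10.56 in the 6 others (0.58 ± 0.14). Tap2, a subunit of the peptide transporter, read 7.12, 7.59 and 7.62 against 6.79 to 7.09 (0.48 ± 0.14), and its knockout and WT means differed by 0.01. Other class I genes of the list did not stand apart in this way: Nlrc5, the class I regulator, was 0.70 above WT in Jak2VF and 0.64 above it in Jak2VF_Ezh2KO, with overlap. Type I interferon response genes had a median of 0.03 over 33 measured, with 0 without overlap and 0 passing. At an unadjusted p under 0.05 (limma), 0 were higher and 1 lower, against 3.3% and 1.7% over all genes.

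Cell cycle and replication genes leaned one way without separating. Of 50 listed, 47 were measured, 44 lay above 0, and the median was 0.29. Yet 1 was higher without overlap (1.31% over all genes) and 0 passed. At an unadjusted p under 0.05 (limma), 3 were higher and 0 lower, against 3.3% and 1.7% over all genes. Members' median relative to WT was 0.15, 0.65 and 0.03 in the Jak2VF arrays, -0.09 to 0.12 in Jak2VF_Ezh2KO and -0.32 to 0.29 in WT. One array, Jak2VF replicate 2, stood above all others, and without it the list's median was 0.10. Without Jak2VF replicate 3, 6 members were without overlap (618 higher and 682 lower over all genes, against 290 and 142 with all arrays). Stmn1, a tubulin-binding protein of dividing cells, was the member without overlap. It read 7.81, 7.75 and 7.77 in Jak2VF against 7.46, 7.52 and 7.49 in WT and 7.03, 7.09 and 7.21 in Jak2VF_Ezh2KO, so the knockout was 0.38 below WT and the difference 0.48 ± 0.10 (adjusted p = 0.469, limma).

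Markers of other blood cells were compared because a sort can hold a few of them. Erythroid genes had the lowest median apart from the sex-linked genes, -0.27 over 22 measured, with 17 below 0 and 0 without overlap. Of them 0 passed (limma, 0 higher and 4 lower at an unadjusted p under 0.05, against 3.3% and 1.7% over all genes). The 4 were Rhd, Tspan33 and the metallothionein genes Mt1 and Mt2. The list's median in Jak2VF minus WT was -0.05, and that in Jak2VF_Ezh2KO minus WT was 0.56, so the list's shift came with the knockout arrays. Relative to WT it was -0.40, 0.61 and -0.19 in Jak2VF and 0.42 to 0.78 in the knockout. The list's median was -0.10 without Jak2VF replicate 1 and -0.14 without WT replicate 2. Without Jak2VF replicate 2 it was -0.52, with 7 members lower without overlap (432 over all genes, against 142 with all arrays). T and NK cell genes had a median of -0.21 over 21 measured (-0.14 without Jak2VF replicate 2). At an unadjusted p under 0.05 (limma), 2 were higher and 5 lower, against 3.3% and 1.7% over all genes. The 5 were Ccl5, Cd7, Id2, Il2rb and Klrd1, all with overlap. Klrd1, Id2 and Ccl5 differed by -0.996, -1.05 and -0.89. For these genes Jak2VF minus WT was -0.298, -0.46 and -0.009, and Jak2VF_Ezh2KO minus WT was 1.396, 1.18 and 1.76. In that list Nkg7, a cytotoxic granule protein, and Thy1, a surface glycoprotein also used to subdivide stem cells, were higher without overlap (0.77 ± 0.18 and 0.61 ± 0.15). The share over all genes was 1.31%. B cell genes had a median of -0.12, neutrophil genes 0.05, monocyte genes 0.04, and mast cell genes 0.09. These small medians have no settled size, and some turned: monocyte genes were at -0.07 without Jak2VF replicate 3, neutrophil genes at -0.03 without both Y-positive knockout arrays and at 0.37 with the dimmer genes left out, and B cell genes at 0.11 with the dimmer genes left out. Without overlap in these lists were Ms4a3, a granulocyte-monocyte progenitor gene (0.88 ± 0.25), Lst1, Mcpt1, a mast cell protease (-0.48 ± 0.18), and Hdc, the histamine-forming enzyme (0.20, named after its value was seen). Over all genes, 1.31% were higher and 0.64% lower without overlap. At an unadjusted p under 0.05 (limma), 2 neutrophil genes were higher and 2 lower, against 3.3% and 1.7% over all genes. The higher ones were Ms4a3 and, with overlap, Ctsg (1.38). The lower ones were S100a8 (-2.005) and S100a9 (-1.08), both with overlap (adjusted p = 0.933, limma). For these lower genes Jak2VF minus WT was -1.16 and -0.55, and Jak2VF_Ezh2KO minus WT was 1.69 and 1.06. Of 18 measured genes of progenitors and gated-out cells, Cd48 was higher without overlap (0.82 ± 0.28), but the knockout was 0.77 above WT. The part of such cells in the differences above was not tested.

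Large differences in this contrast did not always belong to Jak2VF. Mt2, a metallothionein counted in the erythroid list above, differed by -1.12 while Jak2VF and WT differed by -0.02 and the knockout was 2.20 above WT. Cma1, a mast cell protease, differed by -0.79 with Jak2VF 0.05 above WT and the knockout 1.67 above. Il7r (-1.15), the interleukin-7 receptor, and Id2 (-1.05), an inhibitor of E proteins, were likewise highest without Ezh2, by 1.61 and 1.18 over WT. The histone gene H2ac15 differed by 1.05 with the knockout minus WT at -2.04. For these genes the arrays overlapped or the nearness condition failed, and they are not counted as specific.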

How the data were processed

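The data are 9 Affymetrix mouse gene arrays of sorted stem cells, 10 ng RNA each, in 3 groups of 3. The authors deposited 1 log2 value per array for 41345 probe sets. The submitters' processing notes name Partek 6.6; how background and normalization were handled, and on which build, is not stated in the sources used here. Probe sets with 1 gene symbol in the platform annotation (23521; 1814 had several, 16010 were unnamed here) gave 22180 genes, keeping for 1082 genes the probe set with the highest mean. No normalization was added. The number of arrays limits the precision.

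Genes were tested with limma 3.58.1 under R 4.3.3 (lmFit, eBayes without trend) with 3 group means in 1 fit and the contrast Jak2VF minus the mean of both other genotypes, Benjamini-Hochberg adjusted over all genes. Single-gene exact permutation tests set 3 arrays against 6, two-sided. Intervals are at 95%. Values after ± are standard errors of the moderated fit.

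On simulated data over 22180 genes the contrast found 68% of 100 genes shifted by 1 (log2) and 97% of 100 shifted by 2. Of its 170 calls, 5 were genes left unshifted. The simulated noise was normal and independent between genes and arrays, without the mixed sex of the knockout arrays. So many shifted genes also ease the adjusted threshold, so these shares are not the power in the real data, where 2 genes passed. Members, the 28 lists (576 of 667 genes measured) and tests were chosen with earlier results of these data known. Named were the genes that passed, filled to 15 each way by the smallest unadjusted p among genes without overlap, up to 4 members of each list by the smallest p, and Ezh2, Ezh1 and Jak2. Clone-named, predicted and receptor genes were counted and not named, except where said. The alternatives tried are given with their effect in the closing section. RefSeq tables (GRCm38.p6) served for promoter sequences and gene order.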

Additional observations from a re-analysis of the deposited data

How the results depend on the processing

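The fit as reported called 2 genes, of which 1 was specific. Both counts were 0 with a 2-group fit of 3 against 6 arrays, with the larger p of both separate contrasts, with ordinary least squares, with every probe set tested, with a covariate for the arrays with Y-linked signal, without both of these arrays, and at an adjusted p under 0.01. The replicate number as a block also gave 0 and 0. Deviations of same-numbered arrays correlated with r from -0.231 to 0.484 and those of other pairs from -0.502 to 0.333. The highest r was that of replicate 2 of WT with replicate 2 of Jak2VF. Whether same-numbered arrays shared a batch was not tested. In the fits with 0 calls and no single array left out, limma gave 221 to 1812 tests at an unadjusted p under 0.05. The counts of called and specific genes were 3 and 2 with an intensity trend and robust variance and with a covariate for receptor-gene signal, 2 and 2 with quantile normalization and with median centring, 6 and 5 with the dimmer genes left out, 1 and 0 with array weights, and 4 and 3 at an adjusted p under 0.1. With a nearness ratio of 0.25 the specific count was 0, and with 1 it was 2. Leaving out 1 array gave 0 to 7 calls and 0 to 1 specific genes. The count was 0 without any single WT or Jak2VF array or Jak2VF_Ezh2KO replicate 2 (913 to 1726 genes at an unadjusted p under 0.05), 1 without replicate 1 of that genotype and 7 without replicate 3, among them Xist and the Y-linked Kdm5d. The difference of Ezh1 ran from -0.15 to 0.11 when 1 array was left out, and reversed (0.11) without Jak2VF replicate 1. Over 20 alternatives each, the call was lost in 13 for Plag1 and in 14 for I730030J21Rik, in the same direction throughout. Uncalled genes gained a call in 6 cases. The cause of these changes was not tested.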

Other observations

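Neighbouring genes gave further pairs that were higher or lower together without overlap between the Jak2VF arrays and the 6 others. They were chosen after their values were seen. F2r, the thrombin receptor PAR1, read 9.21, 9.64 and 9.77 in Jak2VF against 8.75, 9.06 and 8.23 in WT and 9.0, 8.57 and 8.86 in Jak2VF_Ezh2KO. All Jak2VF arrays were above the others, by 0.79 ± 0.20 (adjusted p = 0.728, limma). Its neighbour Iqgap2, a scaffold of the actin cytoskeleton, differed by 0.32 ± 0.11. The lower pairs besides Plag1 and Chchd7 were Klf12, a repressor of the Krüppel-like family (-1.05), with Prr30 (-0.20), and Necab1, a neuronal calcium-binding protein (-0.26), with a predicted gene.

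Olfactory and vomeronasal receptor genes, which blood cells are not known to use, were counted for comparison. Their mean signal was 3.83 to 4.32 per array, below the array medians of 5.51 to 5.67, so they stand for dim genes only. Of 1394 measured, 6 were higher (0.43%) and 12 lower (0.861%) without overlap in Jak2VF, against 1.31% and 0.64% of all genes.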
